A study of Mus musculus with 46 samples.

Results

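The genes described here are 10 members of the transforming growth factor beta (TGF-beta) pathway, chosen by name among the 22380 protein-coding genes of the mm9 annotation. They comprise the ligands Tgfb1, Tgfb2 and Tgfb3, the receptors Tgfbr1, Tgfbr2 and Tgfbr3, the signal transducers Smad2 and Smad3, and the feedback genes Smad7 and Skil. The value given for a gene is the sum of normalised tags in all peaks that overlapped its body or the 1 kb on either side. It is written as tags per 10 M, where a tag is 1 aligned read.

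TGF-beta ligands are secreted in a latent form and, once released, bind the type II receptor Tgfbr2, which recruits and phosphorylates the type I receptor Tgfbr1. Tgfbr3, also called betaglycan, is a co-receptor that presents ligand, and is the main carrier of TGF-beta 2. The activated type I receptor phosphorylates Smad2 and Smad3, which join Smad4 and enter the nucleus, while Smad7 blocks the receptor and Skil (SnoN) represses Smad target genes. In fibroblasts the pathway sustains matrix production and the mesenchymal state. H3.3 is a histone variant placed into chromatin outside DNA replication, at active genes and regulatory elements among other sites. H3K4me3 marks the starts of genes, and H3K36me3 the bodies of transcribed genes.

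Mouse embryonic fibroblasts (MEFs) carrying a GFP reporter at Oct4 were infected with pMXs retroviruses for Oct4, Sox2, Klf4 and c-Myc (OSKM). ChIP-Seq for H3.3 was carried out on uninfected MEFs (D0), unsorted cells of day 3 (D3), and fractions sorted on the fibroblast surface protein Thy-1 at days 6 and 9 and on the pluripotency antigen SSEA-1 at days 12 and 16. The Thy-1- fractions D6T- and D9T-, the SSEA-1+ fractions D12S+ and D16S+, and the finished induced pluripotent stem cells (iPSCs) formed the successful route, and the unsuccessful fractions were the opposite gates, D6T+ and D9T+ followed by D12S- and D16S-. ESD3, a mouse embryonic stem cell line, was the pluripotent reference. H3K4me3 and H3K36me3 were profiled in D0 and the successful route. The D0 cells were grown with fetal serum. For reprogramming, the growth protocol of the samples gives serum replacement with LIF, ascorbic acid, basic FGF and CHIR99021. The paper lists this medium beside others, among them one with fetal serum and LIF. Medium and factor induction therefore cannot be told apart between D0 and later libraries. In the transdifferentiation system, MEFs received Scl, Lmo2, Runx1 and Bmi1 (SLBR). H3.3 was profiled before induction (MEF), at day 4 (D4) and in cKit+ and cKit- cells at the end, after co-culture on OP9 stroma, which could remain in either fraction. There were 30 libraries with peak lists, 1 for each mark and group, so that no difference below has a replicate check and no test was made. The 95% intervals are exact and cover counting error only.

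The H3.3 libraries of reprogramming held 18.7 M to 41.2 M tags, of which 4.88% to 22% lay in peaks, and those of transdifferentiation 46.7 M to 91.8 M with 1.65% to 37.2% in peaks. The 8 fibroblast markers all had H3.3 peaks in D0 and in MEF, 3 of them had one in iPSCs, and none in D16S+ or ESD3. All 8 pluripotency markers had them in D16S+, iPSCs and ESD3. In cKit+, 2 of 7 hematopoietic markers had a peak, Kit and Ptprc were without one, and 5 of 8 fibroblast markers had one, so that the hematopoietic identity of that library was not visible in these markers. In a mixed population, a smaller share of cells with H3.3 at a gene and less H3.3 per cell cannot be told apart.

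**Figure D1:**
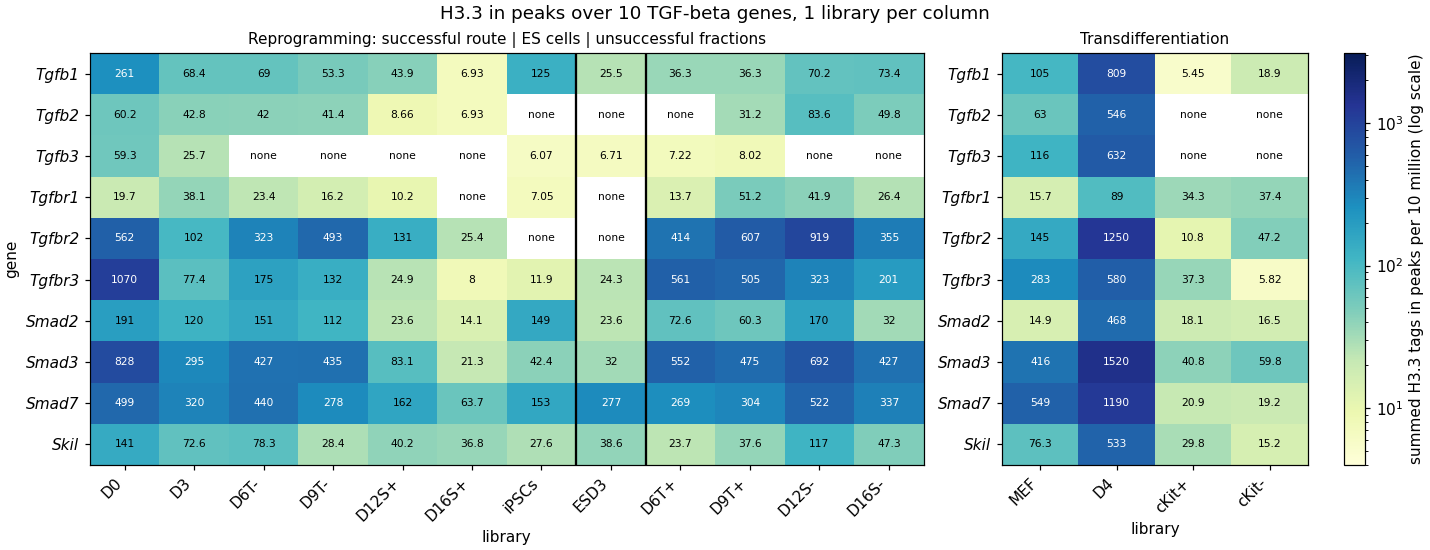
Summed H3.3 tags in peaks per 10 M (colour, log scale, and printed values) for the 10 genes (rows) in the 12 reprogramming libraries and the 4 transdifferentiation libraries (columns), 1 library per column, with "none" where no peak was called. Tgfbr2 has no peak in iPSCs and ESD3, and Tgfbr3 has 1070 in D0 and 77.4 in D3.

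In D0 all 10 genes carried H3.3 peaks, against 61.8% of coding genes. A longer gene has more room for a peak. The windows of the 10 genes ran from 20.1 kb at Tgfb1 to 185 kb at Tgfbr3, and the share was not matched for gene length. Their 119 peaks lay mostly inside the genes, with 100 peak midpoints in introns, and only 12.1% of the summed score came from the 10 peaks that covered an annotated start site. Per kb of gene window, H3.3 in D0 ran from 16.4 tags at Smad7 and 13 at Tgfb1 to 0.709 at Tgfb2 and 0.309 at Tgfbr1. The Tgfb1 value included tags outside its window: of its sum of 261, 117 remained with peak scores limited to the window. In the long receptor and Smad genes it took the form of many separate blocks along the gene body, 36 in Tgfbr3, 21 in Tgfbr2 and 18 in Smad3, as the map of peak positions shows.

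Tgfbr2, the type II receptor, lies on chromosome 9 (mm9 115993415 to 116084383, minus strand). On the successful route its H3.3 was 562 tags per 10 M in D0, 102 at D3, 323 at D6T-, 493 at D9T-, 131 at D12S+ and 25.4 at D16S+. No peak was called in iPSCs or in ESD3. The unsuccessful fractions had 414 at D6T+, 607 at D9T+, 919 at D12S- and 355 at D16S-. Thus H3.3 at Tgfbr2 was lower at day 3 than at days 6 and 9 in either fraction, and the successful fraction was below the unsuccessful one on all 4 sort days. The D3 value was 5.5-fold below D0 (95% interval 4.82 to 6.29). D12S+ was 7-fold below D12S- (6.21 to 7.94), and D16S+ was 14-fold below D16S- (10.4 to 19). After scaling by the share of tags in peaks the ratio of the successful to the unsuccessful fraction was 0.443 at day 6, 0.663 at day 9, 0.452 at day 12 and 0.179 at day 16, so that the gap at day 12 was then no wider than at day 6. Tgfbr2 was the only one of the 10 genes with H3.3 at D0 and all 4 unsuccessful fractions and none in iPSCs and ESD3, a pattern held by 3.11% of the genes with a peak in D0.

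The stretch of Tgfbr2 covered in most libraries was 226 bp just upstream of its start, at 0.57 to 0.35 kb before it, which lay in H3.3 peaks in 10 of 12 reprogramming libraries, all except iPSCs and ESD3. It is shown, from the mm9 genome at chr9:116084730-116084955 on the minus strand, because H3.3 covered it in D0, D3 and all sorted fractions and not in iPSCs or ESD3. The second sequence shows the 250 bases before the RefSeq start of Tgfbr2 (GRCm38.p6, chromosome 9, 116175364 to 116175613, minus strand), shown because an H3K4me3 peak covered the annotated start in all 7 libraries of that mark. Capitals in this and the following sequences mark matches on either strand to CAGAC (the Smad-binding letters), TGANTCA (AP-1), GGGCGG (GC box), TATAAA or ATTTGCAT (octamer).
Tgfbr2 upstream segment: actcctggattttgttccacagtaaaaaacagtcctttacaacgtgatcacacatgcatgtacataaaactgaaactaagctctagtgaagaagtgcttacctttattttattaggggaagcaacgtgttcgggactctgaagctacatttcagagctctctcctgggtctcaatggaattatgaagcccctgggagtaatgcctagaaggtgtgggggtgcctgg
Tgfbr2 promoter: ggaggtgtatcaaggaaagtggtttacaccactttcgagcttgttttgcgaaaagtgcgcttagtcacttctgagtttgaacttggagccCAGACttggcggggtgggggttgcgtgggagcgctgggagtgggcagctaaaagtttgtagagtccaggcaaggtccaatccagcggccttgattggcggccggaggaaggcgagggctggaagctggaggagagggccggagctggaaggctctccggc

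The upstream segment held none of the 5 motifs, and the promoter held 1 CAGAC. The Smad-binding letters were found in 43.8% of windows of the same 226 bp length centred on the D0 H3.3 peaks, and in 42.2% of all 32851 promoter entries of 250 bases. TGANTCA was found in 10.4% of those windows. Letters absent from a window say nothing about binding nearby.

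Tgfbr3, the co-receptor, spans 183 kb of chromosome 5 (107535589 to 107718648, minus strand) and carried 5.79 tags of H3.3 per kb of window in D0, close to the 6.04 of Tgfbr2. Its values on the successful route were 1070 at D0, 77.4 at D3, 175 at D6T-, 132 at D9T-, 24.9 at D12S+, 8 at D16S+ and 11.9 in iPSCs, with 24.3 in ESD3. The unsuccessful fractions had 561 at D6T+, 505 at D9T+, 323 at D12S- and 201 at D16S-. Every unsuccessful fraction was therefore above its successful counterpart, and all were below D0. The successful fraction was 3.21-fold lower at day 6 (2.89 to 3.56), 3.82-fold lower at day 9 (3.41 to 4.28), 13-fold lower at day 12 (9.9 to 17.3) and 25.1-fold lower at day 16 (15.1 to 45.3). After scaling by the share of tags in peaks the ratios at these days were 0.177, 0.214, 0.244 and 0.0996, and the gap did not widen from day 6 to day 12. From D0 to D3 it was 13.8-fold lower (12 to 16). The 36 blocks in D0 covered 71.2 kb, and the covered length was 5.56 kb in D3, 1.31 kb in iPSCs and 1.5 kb in ESD3.

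The stretch of Tgfbr3 covered in most libraries lay in the distal part of the gene, and none of the length covered in D0 was also covered in iPSCs. A 759 bp stretch 178.25 to 179.01 kb from the start was covered in 8 of 12 libraries, namely D0, D3, D6T-, D9T- and all 4 unsuccessful fractions, and in none of D12S+, D16S+, iPSCs and ESD3. Its central 300 bases, intronic at chr5:107539870-107540169 of mm9, are shown on the minus strand because they separate those 2 sets of libraries.
Tgfbr3 distal intronic segment: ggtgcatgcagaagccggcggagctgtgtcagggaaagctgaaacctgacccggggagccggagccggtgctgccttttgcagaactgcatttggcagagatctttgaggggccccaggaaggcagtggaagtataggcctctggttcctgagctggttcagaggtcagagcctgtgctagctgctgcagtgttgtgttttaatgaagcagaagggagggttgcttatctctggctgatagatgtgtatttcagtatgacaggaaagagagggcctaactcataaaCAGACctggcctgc

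This segment held 1 CAGAC, which 53.5% of 300 bp windows on D0 peaks also held, and none of the other 4 motifs. H3K4me3 peaks within the gene were also fewer late on the route. Besides the peak at the start, Tgfbr3 had 11 further H3K4me3 peaks in D0, 4 at D3, 4 at D6T-, 7 at D9T-, 1 at D12S+ and none in D16S+ or iPSCs.

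Tgfbr1, the type I receptor (chromosome 4, 47366094 to 47427803, plus strand), had the least H3.3 per kb of window of the 10 genes in D0. Its sum was 19.7 at D0, 38.1 at D3, 23.4 at D6T-, 16.2 at D9T- and 10.2 at D12S+, with no peak in D16S+, 7.05 in iPSCs and no peak in ESD3. The unsuccessful fractions had 13.7, 51.2, 41.9 and 26.4 at days 6, 9, 12 and 16. It was the only one of the 10 genes with more H3.3 at D3 than in D0, 1.94-fold (1.38 to 2.77), although after scaling by the share of tags in peaks (11.3% in D3, 19.1% in D0) Tgfb2, Smad2 and Smad7 were also higher in D3, by 1.2-, 1.06- and 1.08-fold. Of its iPSC value, 1.45 remained when the peak score was limited to the part of the peak inside the window, since that peak ran past the window.

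**Figure D2:**
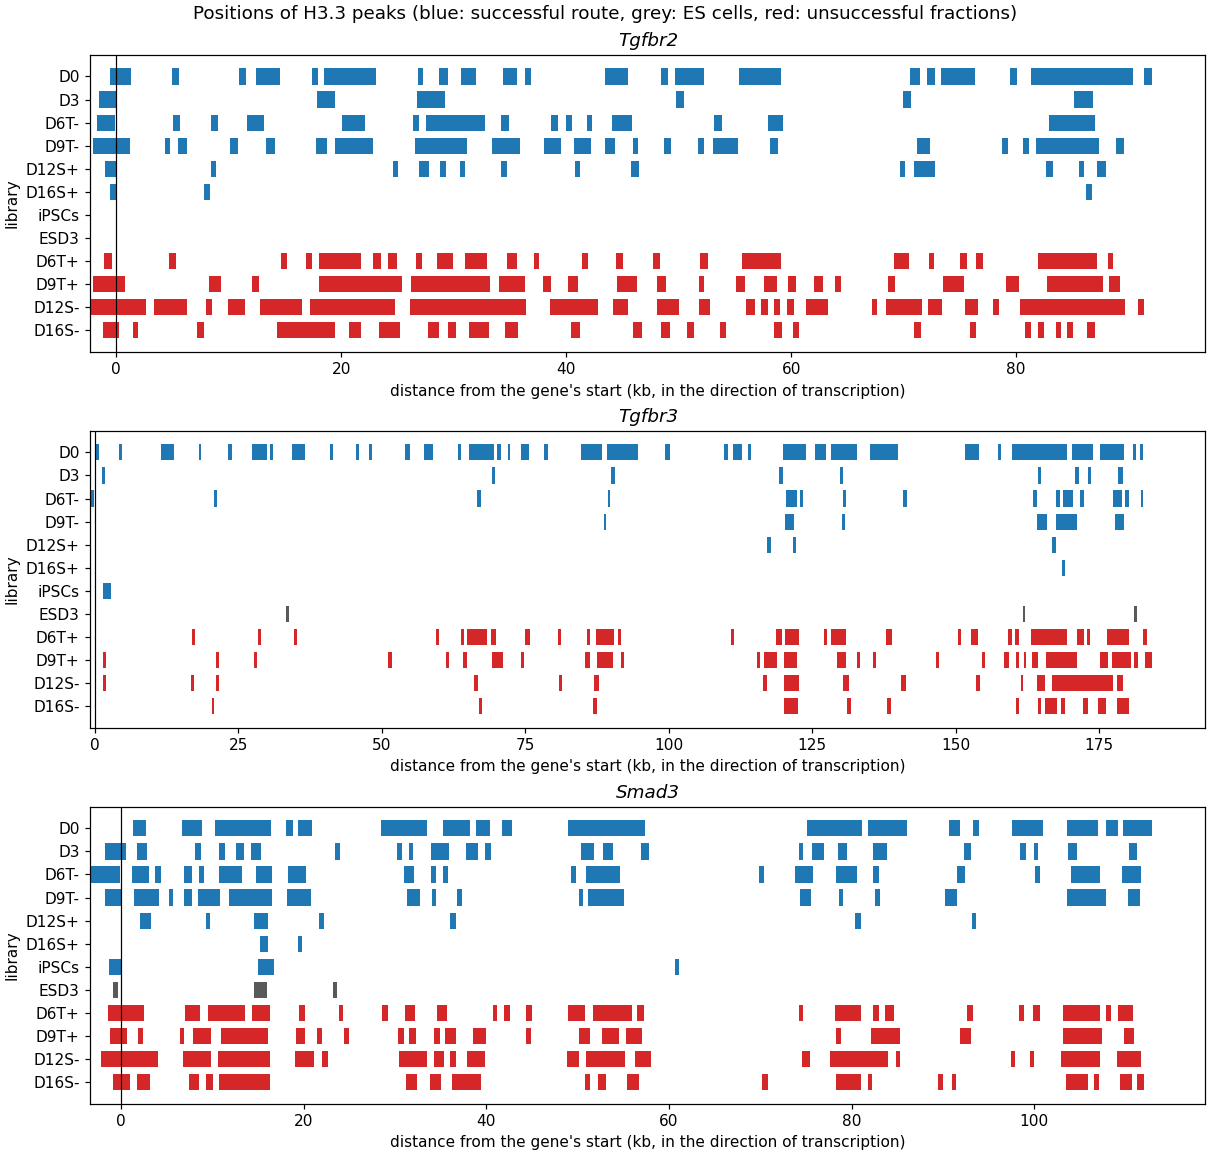
Positions of H3.3 peaks along Tgfbr2, Tgfbr3 and Smad3 (horizontal axis, distance from the gene's start in kb, in the direction of transcription) in the 12 reprogramming libraries (rows). Bars are peaks, blue for the successful route, grey for ESD3 and red for the unsuccessful fractions, and the blocks along the gene bodies are few or missing in D16S+, iPSCs and ESD3.

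Smad3, a receptor-activated Smad, lies on chromosome 9 (63494574 to 63605801, minus strand). Its H3.3 on the successful route was 828 at D0, 295 at D3, 427 at D6T-, 435 at D9T-, 83.1 at D12S+, 21.3 at D16S+ and 42.4 in iPSCs, with 32 in ESD3. The unsuccessful fractions had 552 at D6T+, 475 at D9T+, 692 at D12S- and 427 at D16S-. The successful fraction was 1.29-fold lower at day 6 (1.19 to 1.4), 1.09-fold at day 9 (1.01 to 1.18), 8.33-fold at day 12 (7.16 to 9.73) and 20.1-fold at day 16 (14.6 to 28.2). After scaling by the share of tags in peaks the ratios were 0.438, 0.748, 0.381 and 0.125, so that days 6 and 12 were then close to each other. Smad3 differed from Tgfbr2 in that a small peak remained in every library. It contained the positions 15.25 to 15.26 kb from the start, 14 bp that were covered in all 12 reprogramming libraries. In D0 those positions lay in a block of 10.26 to 16.41 kb, and in iPSCs in a peak of 15.03 to 16.74 kb with a score of 20.5.

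Smad2, the other receptor-activated Smad of the pathway (chromosome 18, 76401234 to 76465385, plus strand), had H3.3 again at the end of the route. It had 191 at D0, 120 at D3, 151 at D6T-, 112 at D9T-, 23.6 at D12S+ and 14.1 at D16S+, but 149 in iPSCs, 1.28-fold below D0 (1.14 to 1.44), or 1.07 times D0 after scaling by the share of tags in peaks. ESD3 had 23.6, a value 6.3-fold below iPSCs (4.73 to 8.56). Scaled by the share of tags in peaks, the ratio of ESD3 to iPSCs was 0.299. The unsuccessful fractions had 72.6 at D6T+, 60.3 at D9T+, 170 at D12S- and 32 at D16S-, below the successful fraction at days 6 and 9 and above it at days 12 and 16, an order that turned at day 16 after scaling by the share of tags in peaks.

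**Figure D3:**
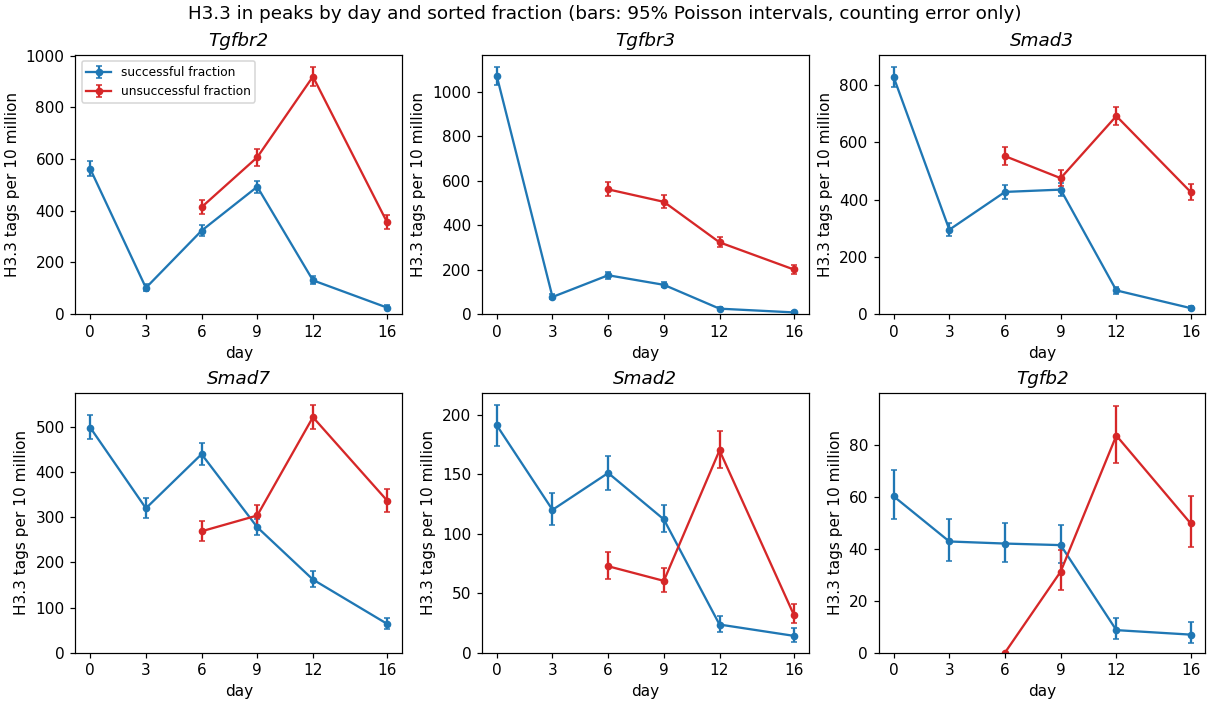
Summed H3.3 tags in peaks per 10 M (vertical axis, linear) by day (horizontal axis) for 6 genes, with the successful fraction in blue and the unsuccessful fraction in red, 1 library per point. Bars are 95% Poisson intervals for counting error only, and a point at 0 has no called peak. The red points lie above the blue ones on all 4 sort days for Tgfbr2, Tgfbr3 and Smad3, whereas the order crosses for Smad7, Smad2 and Tgfb2.

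The ligands differed from each other in H3.3. Tgfb1 lies on chromosome 7 (26472021 to 26490096) and had 261 at D0, 68.4 at D3, 69 at D6T-, 53.3 at D9T-, 43.9 at D12S+, 6.93 at D16S+ and 125 in iPSCs, with 25.5 in ESD3. Its D0 value included a broad peak that ran far past the gene's window. The neighbouring coding gene B9d2 also overlaps this window. Limited to the window, D0 held 117 and iPSCs 123, so that the 2.08-fold lower iPSC value (1.85 to 2.34) was not seen inside the gene. A 186 bp stretch in an intron of Tgfb1, 3.03 to 3.22 kb from the start, lay in H3.3 peaks in all 12 reprogramming libraries. It is shown, at chr7:26475052-26475237 of mm9 on the plus strand, as the counterpart to the Tgfbr2 segment that iPSCs and ESD3 lacked.
Tgfb1 intronic segment: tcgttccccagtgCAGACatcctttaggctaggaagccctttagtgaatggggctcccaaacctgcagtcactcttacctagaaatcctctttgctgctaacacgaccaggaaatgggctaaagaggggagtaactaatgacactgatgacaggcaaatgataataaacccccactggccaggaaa
Tgfb1 promoter: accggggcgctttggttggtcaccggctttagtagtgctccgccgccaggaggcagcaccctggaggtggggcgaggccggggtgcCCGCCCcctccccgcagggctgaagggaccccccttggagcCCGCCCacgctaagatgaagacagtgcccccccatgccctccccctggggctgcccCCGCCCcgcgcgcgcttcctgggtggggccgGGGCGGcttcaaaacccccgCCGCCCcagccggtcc

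The Tgfb1 promoter, 250 bases before the RefSeq start (GRCm38.p6, chromosome 7, 25686752 to 25687001, plus strand), held 5 GC boxes and was 75.2% G and C, against 58.4% for the Tgfbr2 promoter. A GC box was found in 32.7% of all promoter entries. RefSeq promoter entries were at hand for 5 of the 10 genes.

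Tgfb2 (chromosome 1, 188447065 to 188529871, minus strand) had 60.2 at D0, 42.8 at D3, 42 at D6T-, 41.4 at D9T-, 8.66 at D12S+ and 6.93 at D16S+, and no peak in iPSCs or ESD3. Among its unsuccessful fractions no peak was called in D6T+, and the value was 31.2 at D9T+, 83.6 at D12S- and 49.8 at D16S-. Tgfb3 (chromosome 12, 87397694 to 87419991, minus strand) was the gene with the fewest reprogramming libraries in which any 1 position was shared, 3 of 12. It had 59.3 at D0 and 25.7 at D3, no peak in D6T-, D9T-, D12S+, D16S+, D12S- or D16S-, and 6.07 to 8.02 in iPSCs, ESD3, D6T+ and D9T+.

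The feedback genes Smad7 and Skil had H3.3 peaks in all 12 reprogramming libraries, as did Tgfb1, Tgfbr3, Smad2 and Smad3. Smad7 (chromosome 18, 75527183 to 75555589, plus strand), which the signal itself induces, had 499 at D0, 320 at D3, 440 at D6T-, 278 at D9T-, 162 at D12S+, 63.7 at D16S+ and 153 in iPSCs, and 277 in ESD3. Its unsuccessful fractions had 269, 304, 522 and 337 at days 6, 9, 12 and 16. Per kb of gene window Smad7 stood at percentile 85.3 or higher of coding genes in all 12 reprogramming libraries, whereas Tgfbr2 stood at percentile 83.2 at D0 and among the genes without a peak in iPSCs. H3.3 covered 25.5 kb of the Smad7 window in D0, and 38.9% of that length was also covered in iPSCs. This share was 83% for Tgfb1, 31.9% for Smad2, 8.35% for Tgfbr1, 2.77% for Skil and 2.56% for Smad3. It was none for Tgfb2, Tgfb3, Tgfbr2 and Tgfbr3. Skil (chromosome 3, 30993980 to 31021499, plus strand) had 141 at D0, 72.6 at D3, 78.3 at D6T-, 28.4 at D9T-, 40.2 at D12S+, 36.8 at D16S+, 27.6 in iPSCs and 38.6 in ESD3. Its unsuccessful fractions had 23.7, 37.6, 117 and 47.3. From D9T- onward on the successful route the unscaled sum of Skil stayed between 27.6 and 40.2. With scores limited to the window, however, 7.93 remained at D9T- and 11 at D16S+. After scaling by the share of tags in peaks Skil was not level, at 0.26 times D0 in D9T-, 1.02 times in D16S+ and 0.268 times in iPSCs.

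In iPSCs 8 of the 10 genes had an H3.3 peak against 61.1% of coding genes, and in ESD3 7 of 10 against 52.1%, but most had less than in D0. These shares were not matched for gene length. From D0 to iPSCs 9 of 10 were at least 2-fold lower than in D0, counting a gene without a peak as 0, and none at least 2-fold higher, against 41.6% and 24.6% of the 15815 coding genes with a peak in either library. Of these, 13837 had a peak in D0, as all 10 genes did, and a gene without one there can only count as higher. After scaling by the share of tags in peaks, 14% in iPSCs and 19.1% in D0, 8 of 10 were at least 2-fold lower, against 34.4% of coding genes. The median log2 ratio was -2.03 over the 8 genes with a peak in both libraries and -0.53 over all genes. Limited to peaks at least 4-fold over input, all 10 genes were at least 2-fold lower, against 78.2% of coding genes. From D0 to D16S+ all 10 were at least 2-fold lower, but so were 75.7% of coding genes, and D16S+ had the lowest share of tags in peaks of the reprogramming H3.3 libraries, 4.88% against 19.1% in D0. Scaled by that share, 9 of 10 genes remained at least 2-fold lower, with Skil at 1.02 times D0, against 49.1% of coding genes. From D0 to D3, 5 of 10 were at least 2-fold lower against a background of 40.7%, a share near it, and after scaling 3 of 10 against 24.7%. From D0 to D9T-, 4 of 10 were at least 2-fold lower against 36.5%.

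Between the sorted fractions the early and the late days differed. At day 6, 81.9% of coding genes had more H3.3 at D6T- than in D6T+, and 6 of the 10 genes did, of which Tgfbr1 and Smad7 were lower there after scaling by the share of tags in peaks (19.3% against 10.9%). Tgfbr2, Tgfbr3 and Smad3 went the other way, with Tgfb3 listed only in D6T+. In the day 6 sort 2 of 10 genes were at least 2-fold lower in the successful fraction, Tgfbr3 and Tgfb3, against 8.24% of coding genes, and 3 of 10 were at least 2-fold higher against 52.6%. After scaling 4 of 10 were at least 2-fold lower against 15.4%, with Tgfbr2 and Smad3 among them, and 1 at least 2-fold higher against 32%. In the day 9 sort 3 of 10 were at least 2-fold lower against 12.8%, again with Tgfb3 among them. The Tgfb3 calls rested on 1 small peak each, near the lowest score listed in the library. The scores were 7.22 in D6T+, where the lowest was 5.59, and 8.02 in D9T+, where the lowest was 5.12. In the day 12 and day 16 sorts 8 of 9 genes with a peak were at least 2-fold lower in the successful fraction, but the background was 80.7% and 69.6%, so that these counts were close to those of all genes. The medians were lower in both: -2.81 against -1.74 at day 12, and -3.13 against -1.44 at day 16. The share of tags in peaks was 6.93% in D12S+ against 22% in D12S-, and 4.88% in D16S+ against 12.2% in D16S-, and after scaling by it 5 and 7 genes were at least 2-fold lower, against 38.3% and 44.7% of coding genes. Tgfb1 and Skil were then higher in D12S+, and Smad2 and Skil higher in D16S+. Tgfbr2, Tgfbr3 and Smad3 were lower in the successful fraction on all 4 sort days, 3 of 10 genes against 6.5% of coding genes, and none of the 10 was higher on all 4. Scaled by the share of tags in peaks these 3 genes kept that order, joined by Tgfbr1 and Smad7, against 11.2% of coding genes. Limited to peaks at least 4-fold over input, Tgfbr3 and Smad3 kept it, 2 of 10 genes against 11.1% of coding genes.

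Fibroblast markers also had less H3.3 in the successful fractions. Their summed H3.3 was 5510 at D0, 1990 at D3, 1530 at D6T-, 493 at D9T- and 75.5 at D12S+, and 2380 at D6T+, 2180 at D9T+, 1530 at D12S- and 548 at D16S-. All 8 had a peak in D6T+, and 5 of 8 at D6T-. The part of fibroblast content in the difference between fractions was not tested. From D6T- to D9T- the marker sum was lower, as were Tgfb1, Tgfbr1, Tgfbr3, Smad2, Smad7 and Skil, whereas Tgfbr2 was higher. Tgfb2 (42 and 41.4) and Smad3 (427 and 435) were nearly level, and Tgfb3 had no peak in either. The share of tags in peaks was 19.3% at D6T- and 14.8% at D9T-, and these values were not scaled by it.

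iPSCs and ESD3 were compared because both are pluripotent. Of the 8 genes with a peak in either, 3 were at least 2-fold lower in ESD3 (Tgfb1, Tgfbr1 and Smad2) against 55.2% of coding genes, and Tgfbr3 was at least 2-fold higher against 9.58%, at 2.04-fold (1.37 to 3.1). Smad7 was 1.81-fold higher in ESD3 (1.62 to 2.03), and 80% of coding genes were lower there. After scaling by the share of tags in peaks, 14% in iPSCs and 7.4% in ESD3, 4 genes were at least 2-fold higher in ESD3 against 18.6% of coding genes, namely Tgfb3 (2.08), Tgfbr3 (3.85), Smad7 (3.42) and Skil (2.64), and Smad3 turned to 1.42 times iPSCs. D0 and MEF, the uninduced fibroblasts of the 2 systems, were not alike: 4 of 10 genes were at least 2-fold lower in MEF against 66.8%, and 1 of 10 against 35.3% after scaling by the share of tags in peaks, when Tgfb2, Tgfb3 and Smad7 were at least 2-fold higher in MEF against 17.7%. Unscaled, Smad2 showed the widest gap, with 191 at D0 and 14.9 in MEF, 12.8-fold (9.89 to 16.6). After scaling the ratio of MEF to D0 was 0.195 for Smad2, and 4.89 in the other direction for Tgfb3. The Smad2 gap between uninduced fibroblasts was wider than the Smad2 difference between D0 and D3 or iPSCs. This held after scaling too, with D3 at 1.06 and iPSCs at 1.07 times D0.

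In transdifferentiation the 10 genes were all at least 2-fold higher in D4 than in MEF, as were 95.2% of coding genes. Smad2 had 14.9 in MEF and 468 at D4, Tgfbr2 had 145 and 1250, and Smad3 had 416 and 1520. With D3 below D0 as well, 9 of the 10 genes were lower at day 3 of reprogramming and higher at day 4 of transdifferentiation, against 64.5% of coding genes. The median log2 ratio was 2.65 for the 10 genes and 2.61 for all. The share of tags in peaks was 7.64% in MEF and 37.2% in D4, and after scaling by it 1 of 10 was at least 2-fold higher, against 47% of coding genes, and Tgfbr3, Smad3 and Smad7 were lower in D4. In cKit+ all 10 were at least 2-fold lower than in D4, as were 98.5% of coding genes, but after scaling by the share of tags in peaks (1.65% in cKit+) 5 of 10 were, against 63.4%, and Tgfbr1, Tgfbr3 and Skil were higher in cKit+. Tgfb2 and Tgfb3 had no peak in cKit+ or cKit-, and Tgfbr2 had 10.8 in cKit+ and 47.2 in cKit-. In the cKit sort 2 of 8 genes were at least 2-fold lower in cKit+ against 36.6%, and 1, Tgfbr3, was at least 2-fold higher against 30.3%, with 37.3 in cKit+ and 5.82 in cKit-. After scaling Skil was as well, 2 of 8 against 35.5%.

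H3K4me3 stood at the start of all 10 genes in D0, and 86.7% of its score lay in peaks over an annotated start. A start-site peak was present in all 10 genes in D0, D3, D6T-, D9T-, D12S+ and iPSCs, and in 6 of 10 at D16S+. The promoters thus kept the mark in iPSCs, including Tgfbr2, which had no H3.3 peak there. An H3K4me3 peak anywhere in the window was found for 70.2% of coding genes in D0, 69% in iPSCs and 51.6% in D16S+. The share of coding genes with a start-site peak was not computed. Only 9.27% of tags lay in peaks in D12S+ and 3.71% in D16S+. At Tgfbr2 H3K4me3 was 488 at D0, 226 at D3, 450 at D6T-, 406 at D9T-, 87.1 at D12S+, 13.9 at D16S+ and 36.3 in iPSCs. The peak over its start was 7.72 kb long in D0 and 1.81 kb in iPSCs. Smad7 had 1310 at D0 and 217 in iPSCs, in a domain over its start of 15.5 kb in D0 and 6.07 kb in iPSCs. From D0 to iPSCs all 10 genes were at least 2-fold lower, against 71.2% of coding genes, with medians of -2.59 and -1.38. Tgfbr3 was 14.3-fold (12 to 17.3) and Tgfbr2 13.4-fold lower (11.2 to 16.3), whereas Skil was 2.96-fold (2.62 to 3.35) and Tgfb1 3.06-fold lower (2.75 to 3.41). Tags in peaks made up 30.4% of the D0 and 12.7% of the iPSC library. After scaling by that share 6 of 10 genes were at least 2-fold lower, against 16.3% of coding genes, and all 10 were lower. From D0 to D3, 2 of 10 were at least 2-fold lower against 10.2%, and these were Tgfbr2 and Tgfbr3. After scaling by the share of tags in peaks none was, with ratios of 0.614 and 0.535, against 6.6% of coding genes, and Tgfb2, Tgfbr1, Smad2 and Skil were higher in D3. From D0 to D9T-, 3 of 10 were at least 2-fold lower against 16.5%, and after scaling 1 of 10, Tgfbr3, against 10.7%.

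**Figure D4:**
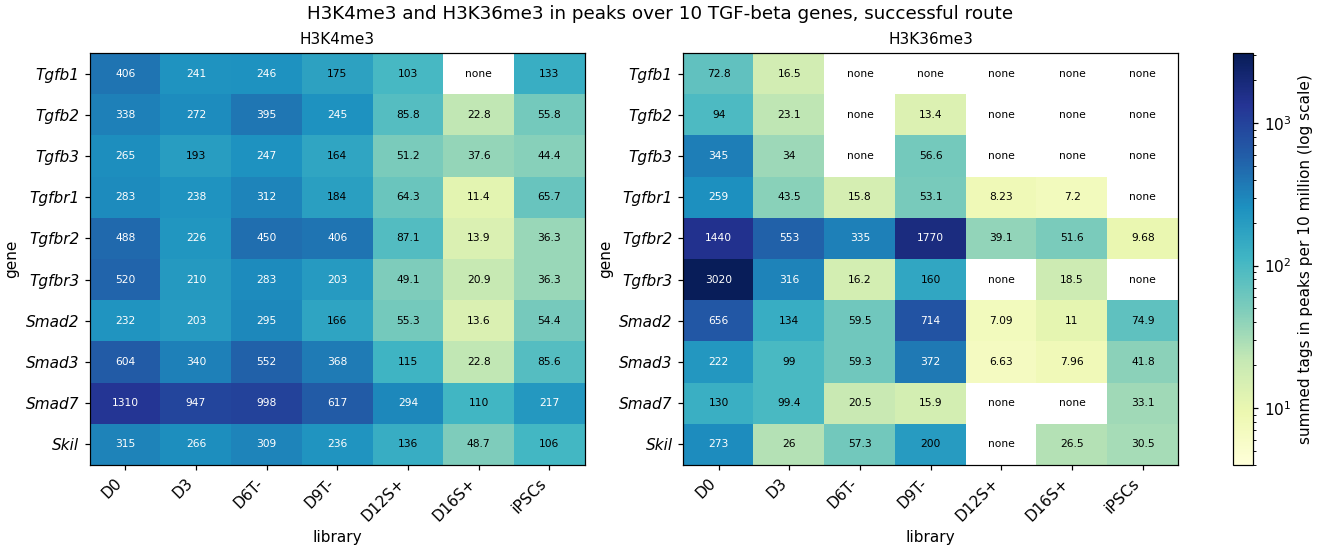
Summed H3K4me3 (left) and H3K36me3 (right) tags in peaks per 10 M (colour, log scale, and printed values) for the 10 genes (rows) in 7 libraries of the successful route (columns), with "none" where no peak was called. H3K4me3 is found at every gene except Tgfb1 at D16S+, where 51.6% of coding genes have a peak. H3K36me3 is absent from 5 of the 10 genes in iPSCs, where 34.7% of coding genes have a peak.

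H3K36me3 took different courses at Tgfbr3 and Tgfbr2. At Tgfbr3 it was 3020 at D0, 316 at D3, 16.2 at D6T-, 160 at D9T-, no peak in D12S+, 18.5 at D16S+ and no peak in iPSCs. At Tgfbr2 it was 1440 at D0, 553 at D3, 335 at D6T-, 1770 at D9T-, 39.1 at D12S+, 51.6 at D16S+ and 9.68 in iPSCs. The libraries themselves were very uneven, with 42.4% of tags in peaks for D9T-, 31.3% for D0, 14.1% for D3, 7.5% for D6T-, 2.88% for iPSCs, 1.99% for D16S+ and 1.07% for D12S+. Within each library, per kb of window, Tgfbr2 stood between the percentiles 85.5 and 89.3 of coding genes from D0 to D16S+ and at 67.8 in iPSCs, and Tgfbr3 stood at 90.6 at D0, 72 at D3, 62.8 at D6T-, 55.1 at D9T- and 77 at D16S+, with no peak in D12S+ or iPSCs.

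D0 and D9T- were the H3K36me3 libraries of the route with the most tags in peaks. Between them 6 of 10 genes were at least 2-fold lower, against 14.9% of coding genes. The median log2 ratio was -2.28 for the 9 genes with a peak in both and 0.59 for all genes. Tgfbr3 was 18.9-fold lower in D9T- (17 to 21.1), Tgfb3 was 6.1-fold lower (5.04 to 7.39), Tgfb2 7.02-fold, Smad7 8.18-fold and Tgfbr1 4.87-fold lower, and Tgfb1 had no peak in D9T-. Tgfbr2 (1.23-fold), Smad2 (1.09-fold) and Smad3 (1.68-fold, 1.51 to 1.87) were higher in D9T-, but Tgfbr2 and Smad2 were lower after scaling by the share of tags in peaks. From D0 to iPSCs all 10 were at least 2-fold lower against 88.9% of coding genes, and the medians were -3.13 and -3.19. Smad2, Smad3, Smad7 and Skil were higher in iPSCs after scaling by the share of tags in peaks. From D0 to D3, 9 of 10 were at least 2-fold lower against 63.1%, and after scaling 5 of 10 against 28.7%, with Smad7 at 1.7 times D0.

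**Figure D5:**
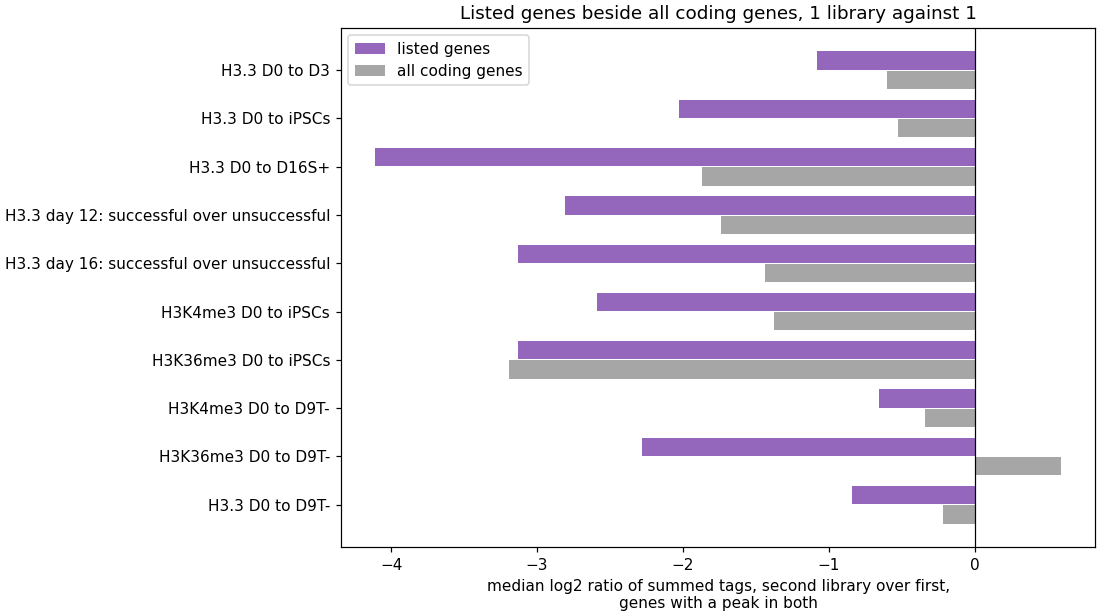
Median log2 ratio of summed tags, second library over first (horizontal axis), over genes with a peak in both libraries, for the 10 genes (purple) and all coding genes (grey) in 10 comparisons (rows), each of 1 library against 1. The purple bars reach lower in all except H3K36me3 from D0 to iPSCs, where they are -3.13 and -3.19, and the H3K36me3 medians from D0 to D9T- have opposite signs.

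The marks overlapped differently among the genes in D0. Of the length with H3.3, 74.3% lay in H3K36me3 peaks at Tgfbr2 and 60.7% at Tgfbr3, against 13.3% at Smad3 and 0% at Tgfb2. At Smad7, 83.7% of the H3.3 length lay in H3K4me3 peaks and 27.7% in H3K36me3 peaks. Smad3 and Tgfbr2, with similar numbers of H3.3 blocks in D0, thus differed in what their blocks shared with H3K36me3.

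Of 58 further genes of the pathway, in 6 lists, 34 were at least 2-fold lower and 7 at least 2-fold higher in H3.3 from D0 to iPSCs, and the counts below stand against 41.6% and 24.6% of all coding genes. Among genes of TGF-beta latency and activation 9 of 10 were at least 2-fold lower. Ltbp1, a latent TGF-beta binding protein, had 901 at D0 and 10.8 in iPSCs, while Ltbp4, of the same family, had 188 and 346. Among the other Smads 4 of 5 were at least 2-fold lower, with Smad1, a Smad of the BMP branch, at 223 and 9.96. Among Smad partners and inhibitors 5 of 9 were at least 2-fold lower, and Ski, the relative of Skil, had 757 and 303. Among TGF-beta target genes of fibroblasts 8 of 12 were at least 2-fold lower, with Fn1 (fibronectin) at 1230 and 276. Among the other receptors 4 of 12 were at least 2-fold lower and 2 at least 2-fold higher, shares below those of all genes. Acvr1, a type I receptor of the BMP and activin class, had 575 at D0 and 72.8 in iPSCs, and Bmpr1a, a BMP type I receptor, had 207 and 235. The activin and nodal ligands and their antagonists were the list with most genes in the other direction, 5 of 10 at least 2-fold higher and 4 at least 2-fold lower. Nodal, which signals through Smad2 and Smad3 in the early embryo, had no peak in D0 and 119 in iPSCs, and Inhba, an activin subunit, had 162 at D0 and no peak in iPSCs.

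The genes most like each member were those with the highest Pearson correlation of percentile rank over the 12 reprogramming H3.3 libraries, among 13302 other genes with a peak in at least 6 of them. The libraries differ in depth and in share of tags in peaks, and the values describe likeness only. Closest to Tgfbr2 were Lrrfip1 and Ltbp1, both at r = 0.988. Closest to Smad3 were Aig1 (0.995) and Fgfr2 (0.994). Closest to Tgfbr3 were Il4ra (0.943) and Rassf6 (0.942). Tgfb1 had the loosest neighbours, Ccdc64 and Adamts14, both at 0.825. No pair of the 10 genes were each other's closest by this measure.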

How the data were processed

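ChIP-Seq libraries were made by the authors from formaldehyde-fixed cells and aligned to mm9 with STAR, and peaks were called with HOMER against the matched input, per the file headers at a fold of at least 2 for H3.3 and 4 for H3K4me3 and H3K36me3. The deposited lists give for each peak a normalised tag count, a signal in tags per 10 M, and the fold over input, a ratio that the authors computed. Tool versions are not given in the sources used here.

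Peaks overlapping a gene of GENCODE vM1 (mm9), with 1 kb on either side, were summed per library, and a peak over several genes counted for each. A call is a difference of at least 2-fold, a gene without a peak counting as 0, among genes with a peak in at least 1 of both libraries. With 1 library per group no test was made. Intervals are exact Poisson or conditional binomial at 95% (scipy), on tags recovered from the scores, and cover counting error only. Peak lists hold only what passed the caller, so no peak is not no H3.3, and a shallow or weakly enriched library lists fewer. The summing was tested on simulated peaks. Members and lists were chosen with earlier results of these data known. All 10 members are named, and from each further list the genes with the largest D0 and iPSC sums. Alternatives were equal numbers of peaks, no flanks, scores limited to the window, covered kb, scaling by the share of tags in peaks, input subtraction, limits of 1.5 and 3, and a fold of 4 over input. The 16 input samples entered only through the peak lists.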

Additional observations from a re-analysis of the deposited data

Results flagged for a closer look

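Early after induction the unscaled sums of the 2 systems went opposite ways: 9 of the 10 genes, all except Tgfbr1, had less H3.3 at D3 than in D0 and more in D4 than in MEF. In D4, however, 98.1% of coding genes with a peak in D4 or MEF were higher than in MEF. Over all coding genes with a peak in any of these 4 libraries the share was 64.5%. The difference between the systems was not tested, since each group had 1 library. Scaled by the share of tags in peaks, Tgfb2, Smad2 and Smad7 were higher in D3 and Tgfbr3, Smad3 and Smad7 were lower in D4. The pattern then held only for Tgfb1, Tgfb3, Tgfbr2 and Skil. The share of all coding genes with it after scaling was not computed.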

How the results depend on the processing

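No paired analysis was possible because each group has 1 library. Of 138 recomputed counts, 119 stayed within 1.5 times the main count and 19 did not. Shares of all coding genes under the same setting are in brackets. Scaling by the share of tags in peaks gave 3 genes at least 2-fold lower from D0 to D3 in place of 5 [24.7%], 4 in the day 6 sort in place of 2 [15.4%], 5 in the day 12 sort in place of 8 [38.3%], 1 in MEF against D0 in place of 4 [35.3%], 5 from D4 to cKit+ in place of 10 [63.4%], 6 for H3K4me3 [16.3%] and 6 for H3K36me3 [46.3%] from D0 to iPSCs in place of 10, 1 at least 2-fold higher from MEF to D4 in place of 10 [47%], and 5 genes lower on all 4 sort days in place of 3 [11.2%]. Keeping peaks at least 4-fold over input gave 1 in the day 6 sort [22%], 6 in the day 9 sort in place of 3 [58.4%], 10 in MEF against D0 [98%], 6 at least 2-fold higher from MEF to D4 [89.5%], 6 from D4 to cKit+ [99.6%] and 0 in the cKit sort in place of 2 [62.7%]. An equal number of peaks gave 1 in the day 6 sort [12.3%]. Covered kb gave 5 for H3K4me3 from D0 to iPSCs [20.1%]. A 3-fold limit gave 3 [27.5%] and a 1.5-fold limit 8 [54%] from D0 to D3. The counts of H3.3 from D0 to iPSCs, from D0 to D16S+ and in the day 16 sort stayed within 1.5 times under all alternatives run. The shares of all coding genes moved more widely, over 32.7% to 78.2%, 49.1% to 80.3% and 44.7% to 76.3% in turn. The 78.2% was for peaks at least 4-fold over input, where all 10 genes were at least 2-fold lower from D0 to iPSCs. The cause of the other shifts was not tested. The count over 4 sort days with its alternatives, and the scaled counts of H3K4me3 and H3K36me3 to D3 and D9T- and of genes at least 2-fold higher, were added after seeing the data.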
